A study of Mus musculus with 37 samples.

Results

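The nucleus accumbens of adult mice that had overexpressed the glucocorticoid receptor (GR) in early life was compared with that of control mice. The comparison used the 12 arrays of the series whose titles name these groups, 6 per group, out of 37 arrays in all. One of them, early-life array 5, stands apart from every other nucleus accumbens array, so values are given without it unless said, and the main counts and gene groups also with it. No feature passed an adjusted p of 0.05 either way. Without array 5, genes of the medium spiny neurons, the main neurons of this nucleus, lay lower as a group in the early-life animals. Most genes listed for the neighbouring septum and ventral pallidum were not tested. The 5 that were lay higher, by 0.05 to 0.65, and some of them also stand in lists of other cells or receptors.

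All animals were adult male C57BL/6J mice, left undisturbed and studied in the morning. The early-life group is labelled as having GR overexpression (GRov) in early life, which the series title places in the forebrain, the lifetime group (7 nucleus accumbens arrays) as having it throughout life, and the controls as having none. The labels give neither the promoter that drives the extra GR, nor the way it was limited to a period, nor the age in weeks. Tissue was captured by laser from 12 µm coronal sections, its RNA went through 2 rounds of amplification, with areas collected animal by animal. Dentate gyrus was profiled on the other 18 arrays, which carry numbers that recur in the nucleus accumbens; same-numbered arrays were taken to come from 1 animal, which the labels do not state of each number.

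GR is a receptor that glucocorticoid hormones activate. On binding hormone it leaves a chaperone complex, enters the nucleus and raises or lowers the transcription of its target genes. The nucleus accumbens is the ventral part of the striatum, where dopamine acts on GABA-releasing medium spiny neurons. Those of the direct pathway carry the dopamine D1 receptor and make substance P and dynorphin, and those of the indirect pathway carry D2 and adenosine A2a receptors and make enkephalin. In both, dopamine alters cAMP, and the phosphoprotein DARPP-32 (gene Ppp1r1b) passes that signal to protein phosphatase 1.

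Levels below are log2 microarray values, so a difference of 1 is a doubling. Of 18835 distinct features on the arrays, the 11301 with the higher mean levels were tested with limma, in a fit that also took in the lifetime arrays to estimate the spread. Differences are early life minus control, with adjusted p-values by Benjamini-Hochberg over all 11301 features. Differences quoted without further remark leave out array 5.

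The arrays were checked first. The median of array 5 was 6.50, against 6.16 to 6.22 in the other early-life arrays and 6.15 to 6.21 in the controls. Its interquartile range was 1.72, against 2.28 to 2.42 and 2.30 to 2.37. It correlated with the other nucleus accumbens arrays at a mean r of 0.773, against 0.976 to 0.980 in the rest of both groups. With array 5 the groups did not differ past a threshold of 0.05 in these measures (two-sided exact permutation p = 0.677, 0.913 and 0.935 over 924 arrangements), nor without it (p = 0.623, 0.180 and 0.139 over 462). When array 5 was also left out of the correlations, the early-life arrays had a mean r of 0.991 and the controls 0.990. That difference of 0.0016 had an exact permutation p of 0.0498, or 0.199 adjusted over the 4 measures without array 5.

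**Figure D1:**
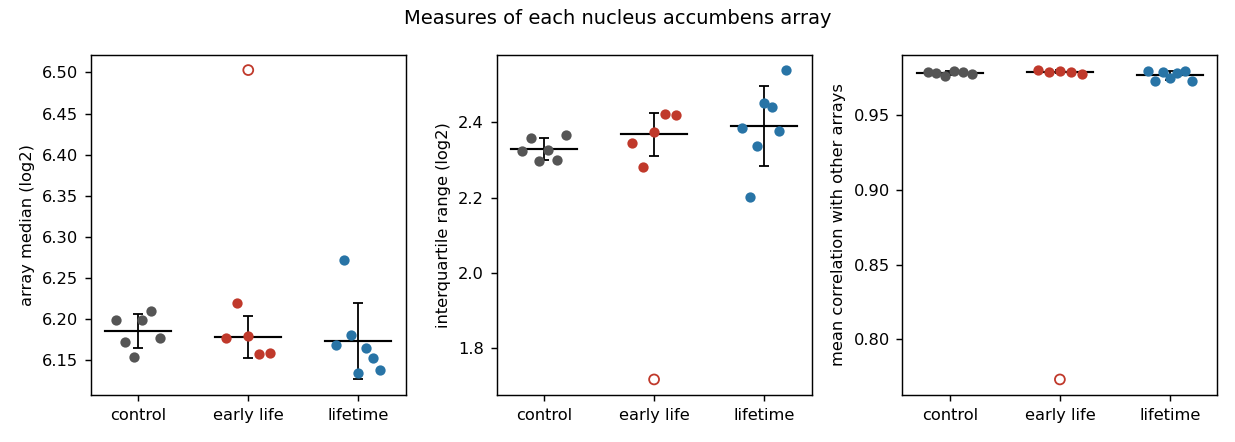
Median, interquartile range (both log2) and mean correlation with the other nucleus accumbens arrays, for each array of the control, early-life and lifetime groups. Filled points are arrays, lines and bars are the mean and SD, and the open circle is early-life array 5 at 6.50, 1.72 and 0.773, which is left out of the mean and SD.

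The tissue label held against its markers in every array but 5. Without array 5, Drd1 (the D1 receptor) ran from 9.55 to 10.76 over the 3 nucleus accumbens groups and from 5.46 to 7.05 in the dentate gyrus. Penk (enkephalin) and Tac1 (substance P) were at 11.46 to 12.29 and 12.75 to 13.56. The dentate granule cell genes Dsp and Lct stayed between 4.29 and 4.82, against 10.75 to 12.51 in the dentate gyrus. Both were below the level filter. The mean of the 10 other granule cell genes that were tested varied more between arrays. It ran from 6.96 to 7.54 in the early-life arrays and from 6.80 to 7.24 in the controls, and was 7.08 in array 5. Array 5 was lower for Drd1 at 8.66, Penk at 9.42 and Tac1 at 9.33, but not for every striatal gene. Adora2a (the A2a receptor) was at 8.70 in it, above the other early-life arrays, Rgs9 at 9.23 and Actn2 at 7.79 likewise, and Ppp1r1b at 8.14 and Pde10a at 8.32 lay among them. Slc17a7, the vesicular glutamate transporter of cortical neurons, reached 7.11 there, against 5.21 to 5.83 in the other nucleus accumbens arrays. Dsp and Lct were both at 4.86, so granule cell genes of this kind were not raised to dentate levels in it.

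Housekeeping groups were also low in array 5. The mean of 29 proteasome genes was 7.44 there, against 9.01 to 9.15 in the other early-life arrays and 8.89 to 9.28 in the controls. That of 66 subunits of oxidative phosphorylation was 9.07, against 10.52 to 10.63 and 10.48 to 10.83. Their part in the comparison with all arrays was not tested.

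Nr3c1, the gene for GR, came next, since it was the gene overexpressed. Its level was 7.54, 7.30, 7.54, 7.78 and 7.69 in early-life arrays 1, 2, 3, 4 and 6, and 6.84 in array 5. The controls had 7.25, 7.39, 7.66, 7.42, 7.40 and 7.30. The groups overlapped: 4 of the 5 early-life arrays lay above the control mean of 7.40 ± 0.14 (SD, n = 6), as the early-life mean was 7.57 ± 0.18 (SD, n = 5). The difference of 0.17 ± 0.11 (SE) had an adjusted p of 0.745 in limma and a two-sided exact permutation p of 0.123. With array 5 it was 0.04, with an adjusted p of 0.917 and an exact p of 0.803. The lifetime arrays, set against the same controls, had a difference of 0.35. The labels do not say whether the array's probes for Nr3c1 read the transgene, so this value bears on the total GR transcript only as far as the probes do.

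Across all features, the comparison with all 12 arrays called 0 of 11301, or 0%, at an adjusted p of 0.05. The smallest adjusted p was 0.156, and 556 features (4.92%) had an unadjusted p under 0.05. Without array 5 the count was again 0 (0%), while the smallest adjusted p was 0.074 and 977 features (8.65%) had an unadjusted p under 0.05. Of these, 595 (5.27% of those tested) lay higher in the early-life group and 382 (3.38%) lower. An adjusted p under 0.10 was reached by 15 features (0.133%), 8 higher and 7 lower, and the arrays of the groups did not overlap for 163 features (1.44%). By direction alone, 51.9% of all features lay higher without array 5 and 52.8% with it. Counts of list members that lay higher or lower, given below, are to be read beside that share.

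The count depended on how arrays were weighted. With limma's array weights, which give less weight to arrays that deviate more over all features, 184 features were called higher (1.63%) and 112 lower (0.991%) without array 5. Leaving out further single arrays moved that total from 296 to between 42, without early-life array 4, and 607, without array 2. With the animal as a replicate block over both regions, 16 features passed without array 5, and 5 passed with it: Ppp1r1b and Scn4b lower, and Cntln, Marcksl1 and Sez6l higher. Leaving out control array 19 beside array 5 gave 1 call, Scn4b. Leaving out lifetime array 8 beside array 5, which touches only the estimate of the spread, gave 9, among them Scn4b, Lingo3, Nrxn2 and Pcdh19. Marcksl1 and Sez6l were named after their values were seen.

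Scn4b had the smallest adjusted p without array 5. It encodes the β4 subunit of voltage-gated sodium channels, which supports the fast resurgent sodium current and is abundant in striatal neurons. Its RefSeq promoter, 250 bases before to 50 after the start site, lies at chr9:45138374-45138673 on the plus strand of GRCm38.p6. It is shown because GR binds DNA as a dimer to paired 6-letter arms, and the window holds 1 such arm, in capitals.
Scn4b: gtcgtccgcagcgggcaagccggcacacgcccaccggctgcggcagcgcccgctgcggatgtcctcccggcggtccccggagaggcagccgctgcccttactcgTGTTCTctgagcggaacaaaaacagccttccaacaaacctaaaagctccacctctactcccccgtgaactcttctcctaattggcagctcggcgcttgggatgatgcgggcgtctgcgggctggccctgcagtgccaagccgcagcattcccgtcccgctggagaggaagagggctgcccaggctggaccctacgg
The arm searched was TGTTCT on either strand, and 18.97% of 32851 promoters of this length hold it. Of the 14 genes with an adjusted p under 0.10, 8 were searched, with 12 windows in the RefSeq table, of which 2 held the arm. None of the 12 held both arms as a palindrome with 3 bases between. A match is a run of letters and was not tested for binding.

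Scn4b stood at 9.78, 9.48, 9.54, 9.31 and 9.64 in early-life arrays 1, 2, 3, 4 and 6. Controls 14 to 19 had 10.46, 10.48, 10.55, 10.51, 10.29 and 11.69. Every early-life array lay below every control, and control 19 lay far above the other controls. The difference was -1.12 ± 0.19 (SE), or 0.461 of the control level, with an adjusted p of 0.074 in limma. Without control 19 it was smaller, at -0.91, but the adjusted p was 0.007, as the controls then varied less. Array 5 had 7.65 and made the difference -1.43 with an adjusted p of 0.257. The lifetime arrays, compared with the same controls, differed by -0.70.

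Ppp1r1b, the DARPP-32 gene, had 8.25, 8.03, 7.997, 7.95 and 8.15 in the same 5 early-life arrays and 8.45, 8.28, 8.44, 8.57, 8.65 and 8.84 in controls 14 to 19. These groups did not overlap, though the highest early-life array lay close to the lowest control. The difference was -0.46 ± 0.09 (SE, adjusted p = 0.096), and array 5, at 8.14, left it at -0.45 with an adjusted p of 0.257. Ppp1ca, a catalytic subunit of the protein phosphatase 1 that DARPP-32 inhibits, was lower by the same order, at 8.97 ± 0.11 (SD, n = 5) against 9.46 ± 0.24 (SD, n = 6). Its difference was -0.50 (adjusted p = 0.096).

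Actn2, an α-actinin that binds NMDA receptors and actin at synapses, ran from 6.67 to 6.99 in the early-life arrays without array 5 and from 7.07 to 7.45 in the controls. Its difference of -0.42 (adjusted p = 0.096) shrank to -0.26 with array 5, which stood at 7.79 and above all controls. Lingo3, a leucine-rich repeat membrane protein, was at 8.26 ± 0.09 (SD, n = 5) against 8.66 ± 0.14 (SD, n = 6). Its difference was -0.41 (adjusted p = 0.086), and array 5, at 8.46, also lay below the lowest control, 8.52. Sbsn, known from skin, differed by -0.47 and Cyc1, a subunit of respiratory complex III, by -0.32 (both adjusted p = 0.096).

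Nrxn2 lay higher. It encodes a neurexin, a presynaptic protein that organises synapses. Early-life arrays 1, 2, 3, 4 and 6 had 9.90, 9.49, 9.68, 9.71 and 9.79, and controls 14 to 19 had 9.36, 9.26, 8.98, 8.91, 9.27 and 9.03. Array 5, at 9.71, lay among its group. The difference was 0.58 with or without array 5, a 1.49-fold higher level, with an adjusted p of 0.156 with it and 0.074 without. Of the 15 features with an adjusted p under 0.10 it had the smallest adjusted p when array 5 was kept.

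Pcdh19, a protocadherin that mediates adhesion between neurons, was measured by 2 features that gave differences of 0.65 and 0.60 (both adjusted p = 0.096). By the feature with the larger difference, the early-life arrays ran from 7.74 to 8.30 and the controls from 7.31 to 7.48. Array 5 was at 5.79, below every control, and took that difference to 0.28. In the lifetime arrays the difference from the same controls was 1.16.

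Further genes that lay higher with an adjusted p of 0.096 were Mageh1, of the MAGE family, by 0.81, Ptprr, a tyrosine phosphatase that acts on MAP kinases, by 0.39, and Cntln, a centrosome protein, by 0.39. Greb1l lay higher by 0.44 (adjusted p = 0.099). Cntln and Greb1l kept their side in array 5, at 7.34 and 7.96, whereas Mageh1 and Ptprr were at 5.03 and 6.39 there, below the control means.

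**Figure D2:**
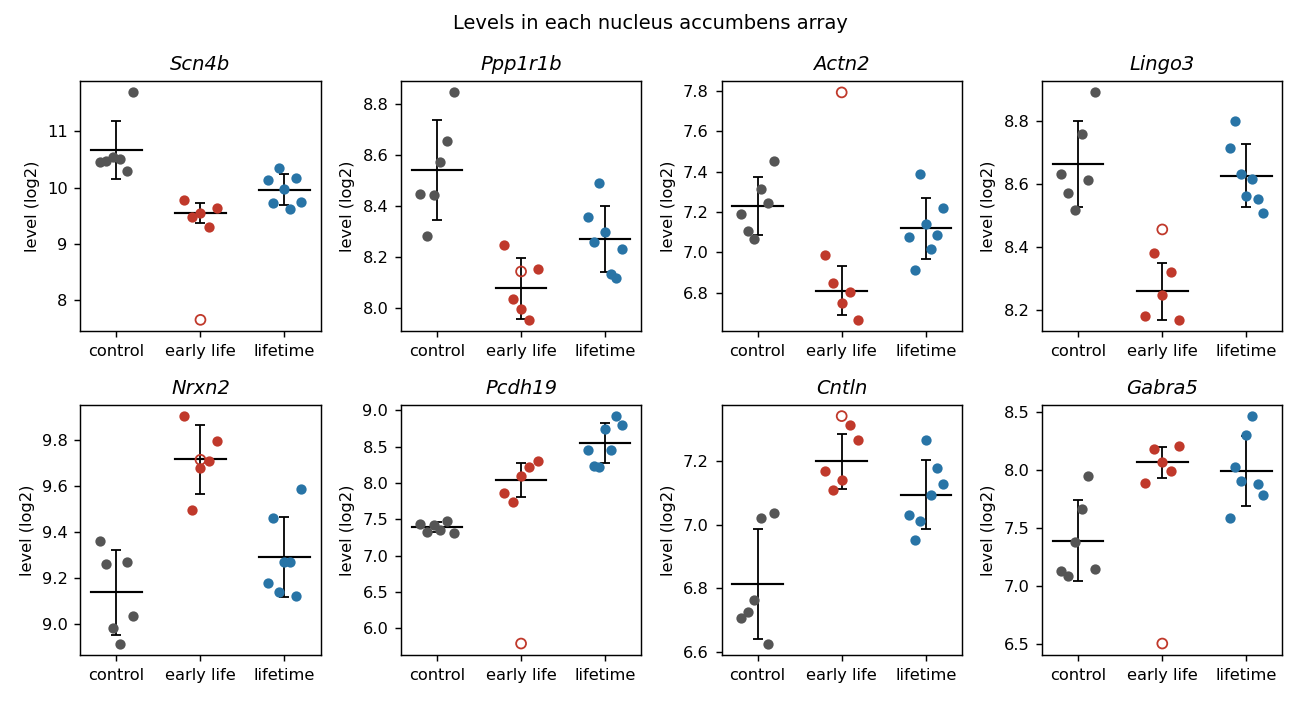
Log2 level of 8 genes in each nucleus accumbens array of the control, early-life and lifetime groups. Filled points are arrays, lines and bars are the mean and SD, and the open circle is early-life array 5, left out of the mean and SD. The filled early-life points lie below the controls for Scn4b, Ppp1r1b, Actn2 and Lingo3 and above them for Nrxn2, Pcdh19 and Cntln, without overlap. Gabra5 overlaps in control 18. Array 5 lies far outside the other early-life arrays for Scn4b, Actn2, Pcdh19 and Gabra5, and slightly above them for Lingo3 and Cntln.

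Genes of all medium spiny neurons lay lower in the early-life group. Of 21 tested members, 20 were lower and 1, Rarb, was higher, and the median difference was -0.27, against 0.01 for all features tested. None passed an adjusted p of 0.05. An unadjusted p under 0.05 was reached by 9, all lower, where 3.38% of all features did so in that direction. The list was chosen with earlier results of these data known, so its counts are not independent of them. The arrays of the groups did not overlap for 5, all lower, against 1.44% of all features in either direction. Under array weights 6 were called lower, Ppp1r1b, Actn2, Pde1b, Rasd2, Rgs9 and Rxrg, and 0 higher, where 0.991% of all features were called lower. With array 5 the median was -0.33, with 18 lower and 3 higher. In the dentate gyrus the early-life differences of the same 21 genes had a median of -0.11, against -0.02 for all features. They ran from -0.55 for Foxp2 to 0.47 for Bcl11b.

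The mean level of the 21 genes was 8.77, 8.80, 8.70, 8.68 and 8.70 in early-life arrays 1, 2, 3, 4 and 6. It was 8.99, 8.83, 8.81, 9.03, 8.97 and 9.35 in controls 14 to 19, and 8.43 in array 5. The groups did not overlap, but the highest early-life array was close to the lowest control, and control 19 was the highest of all. Without control 19, 18 of the 21 genes were lower, with a median of -0.22. Leaving out each other early-life or control array in turn left 19 or 20 lower, with medians from -0.31 to -0.25. In bulk tissue, fewer medium spiny neurons in the captured area and less RNA of these genes per neuron cannot be told apart.

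Several genes with larger differences in this list are known from dopamine and calcium signalling. Rgs9, which speeds the shut-off of G proteins below dopamine receptors, was at 8.75 ± 0.17 (SD, n = 5) against 9.23 ± 0.31 (SD, n = 6), a difference of -0.48 (adjusted p = 0.243), with array 5 at 9.23. Rasd2, a small GTPase also known as Rhes, differed by -0.53 (adjusted p = 0.185), and Rxrg, a retinoid X receptor, by -0.58 (adjusted p = 0.295). Pde1b, a calcium-dependent phosphodiesterase, was at 7.63 ± 0.18 (SD, n = 5) against 8.08 ± 0.13 (SD, n = 6), a difference of -0.45 (adjusted p = 0.104). Pde10a, the phosphodiesterase enriched in these neurons, differed by -0.33. The transcription factors that set the identity of these neurons differed less, with Foxp1 at -0.16, Bcl11b at -0.09, Meis2 at -0.07 and Foxp2 at -0.04.

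**Figure D3:**
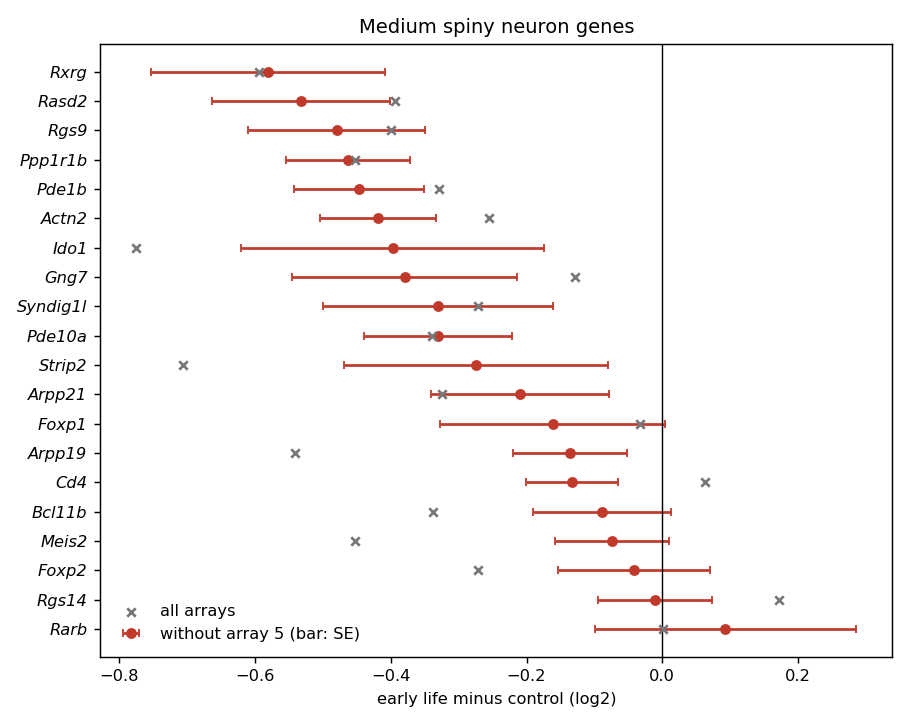
Difference in log2 level, early life minus control, for 20 of the 21 tested genes of the medium spiny neuron list. Filled points with bars are the difference and its SE without array 5 and crosses the difference with all arrays; every point but that of Rarb lies left of 0, and the crosses of Cd4, Rgs14 and, barely, Rarb lie to its right.

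The markers of the separate pathways did not all follow. Of 5 tested direct-pathway genes, Tac1 differed by -0.32 (adjusted p = 0.353), Slc35d3 by -0.32, Drd1 by -0.18 and Sfxn1 by -0.05, whereas Isl1, a transcription factor of direct-pathway and cholinergic neurons, was higher by 0.34 (adjusted p = 0.513). Of the 4 tested indirect-pathway genes, Upb1 differed by -0.25, Adora2a by -0.11, Grik3 by -0.07 and Penk by -0.07. With array 5 the median of the direct-pathway genes was -0.41 and that of the indirect-pathway genes -0.14. Drd1 was at 10.76 in control 19 and at 9.89 to 10.18 in the other controls, while the 5 early-life arrays lay at 9.91 to 10.23, within the controls' range.

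Among 33 tested genes of dopamine and cAMP signalling, 20 were lower and 13 higher, with a median of -0.05. The list shares 6 genes with that of the medium spiny neurons, so the counts are not separate. An unadjusted p under 0.05 was reached by 9 on the lower side, where 3.38% of all features did so, among them Ppp1ca, Ppp1r1b, Pde1b, Rgs9, Gnb5, Pde7b, Pde10a and Gng7. On the higher side 2 of the 33 genes reached it, as did 5.27% of all features. These 2 were Ddc, the enzyme that makes dopamine from L-DOPA, at 0.96 (adjusted p = 0.295), and the inhibitory G protein Gnai1 at 0.18 (adjusted p = 0.476). The median of this list turned on single arrays: it was -0.02 without early-life array 3 and -0.08 without control 16. With array 5, 23 were lower, and the median was -0.15. Of these, 7 had an unadjusted p under 0.05, where 2.34% of all features did so on the lower side.

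Markers of neighbouring cells were compared beside these genes. Of the 13 listed genes of septal and ventral pallidal neurons, 5 were tested and all 5 were higher, with a median of 0.50. Without early-life array 2 as well, 4 were higher and 1 lower. Lhx8, a transcription factor of ventral forebrain neurons, differed by 0.65 and Zic1, of septal neurons, by 0.53 (adjusted p = 0.617 and 0.713). Lhx8 also stands in the list of cholinergic neurons, whose other tested genes were Isl1 at 0.34, Ecel1 at -0.18 and Ache at -0.04. Matn2, a matrix protein, differed by 0.50 (adjusted p = 0.375), and by 0.60 in the dentate gyrus. Lhx2 differed by 0.11 and Tacr1 by 0.05. Tacr1 lay above the control mean in 2 early-life arrays and below it in 3. Only Matn2 had an unadjusted p under 0.05 in limma, where 5.27% of all features did so on the higher side. The mean of the 5 was 7.62 to 8.02 in the early-life arrays without array 5 and 7.38 to 7.58 in the controls, without overlap, and 7.42 to 7.997 in the lifetime arrays. Array 5 stood at 7.46, with Matn2 at 6.35 in it, and with it the median was 0.28. Trpc4, Otx2, Zic2, Zic4, Sncg and Prokr2 were below the level filter, and Prdm12 and Gbx1 were not analysed here. The part of these cells in the lower medium spiny neuron genes was not tested.

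Other cell types were compared as well. Of 7 meningeal genes 6 were higher, with Dcn, the matrix proteoglycan decorin, at 0.49 (adjusted p = 0.426), and the median was 0.29. It was 0.08 without control 19 and 0.23 with array 5, where Dcn was at 7.88, above every other array of both groups. Their mean ran from 7.21 to 7.78 in the early-life arrays and from 6.64 to 7.73 in the controls. Of 18 oligodendrocyte genes 13 were lower, with a median of -0.10, and the myelin protein gene Opalin differed by -0.39 (adjusted p = 0.564). That median was -0.03 without early-life array 6 and -0.06 without control 15, and -0.18 with array 5. Of 13 microglial genes 11 were lower, with a median of -0.05, but with array 5 only 7 were. Of 19 astrocyte genes 11 were lower and 8 higher, and with array 5 12 and 7, where 51.9% and 52.8% of all features were higher.

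**Figure D4:**
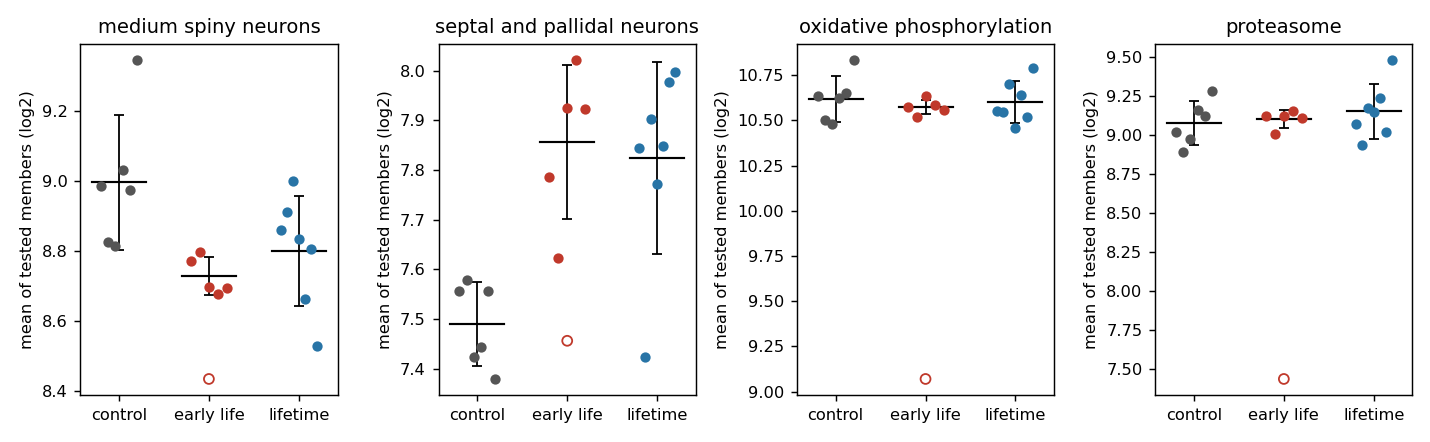
Mean log2 level of the tested members of 4 gene lists in each nucleus accumbens array. Filled points are arrays, lines and bars are the mean and SD without early-life array 5, which is the open circle; medium spiny neuron genes (21) lie lower and septal and pallidal genes (5) higher in the early-life arrays than in the controls, and array 5 lies far below both groups for oxidative phosphorylation (9.07) and the proteasome (7.44).

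Receptors for GABA, the transmitter that medium spiny neurons release and receive, differed by subunit. Of 17 tested genes of GABA receptors and GABA handling 13 were higher, with a median of 0.12, but with array 5 the median was -0.06, and without control 18 it was 0.07. Gabra5, the α5 subunit of extrasynaptic receptors, was at 8.07 ± 0.13 (SD, n = 5) against 7.39 ± 0.35 (SD, n = 6), a difference of 0.68 (adjusted p = 0.132). Gabrg1 differed by 0.66 (adjusted p = 0.472) and Gabrb2 by 0.35 (adjusted p = 0.204). Gabrd, the δ subunit of extrasynaptic receptors, lay the other way, at 7.84 ± 0.18 (SD, n = 5) against 8.36 ± 0.39 (SD, n = 6), a difference of -0.51 (adjusted p = 0.278). Under array weights, 4 of these genes were called higher, among them Gabra5, Gabrg1 and Gabrb2, and Gabrd lower, where 1.63% of all features were called higher and 0.991% lower.

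Other synaptic and channel genes differed singly, none past the threshold. In the postsynaptic density list, Camk2b, a subunit of calcium/calmodulin-dependent kinase II, was at 8.63 ± 0.07 (SD, n = 5) against 8.94 ± 0.16 (SD, n = 6), a difference of -0.31 (adjusted p = 0.378). The kinase's α and γ subunits lay the other way, Camk2a by 0.23 and Camk2g by 0.26 (adjusted p = 0.427 and 0.434). Cacna2d1, an accessory subunit of calcium channels, differed by 0.32 (adjusted p = 0.189). Of 35 potassium channel genes 24 were lower, with a median of -0.06, and Kcnc2, a fast delayed-rectifier channel, was the furthest higher at 0.99 (adjusted p = 0.468), with array 5 at 5.54. With array 5, 18 of the 35 were lower and 17 higher, and without early-life array 2 or control 14 the median was -0.09 or -0.03. Among 33 axon guidance genes 20 were higher, and 25 with array 5, where 51.9% and 52.8% of all features were. Robo1, the Slit receptor, differed by 0.59 and Nrp2, a semaphorin receptor, by 0.48 (adjusted p = 0.385 and 0.321). Sox11, a transcription factor of young neurons, was at 7.81 ± 0.12 (SD, n = 5) against 7.34 ± 0.20 (SD, n = 6), a difference of 0.47 (adjusted p = 0.185), and array 5 was at 7.31.

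The stress axis was of interest because GR closes its feedback. Of 19 tested genes of the axis, of GR's chaperones and of its co-regulators, 15 were higher, with a median of 0.12, but with array 5 only 10 were, with a median of 0.01, and without early-life array 3 the median was 0.08. Crh, corticotropin-releasing hormone, was at 8.60, 8.68, 8.13, 8.63 and 9.23 in early-life arrays 1, 2, 3, 4 and 6. The controls spread from 5.82 to 8.74, which takes in 4 of those 5 arrays. The difference of 1.33 ± 0.45 (SE) had an adjusted p of 0.389, and array 5 was at 5.51. Crhbp, which binds CRH, differed by 0.33, the neuropeptide Y receptor Npy1r by 0.25, and Hsd11b1, which regenerates active glucocorticoid, by 0.21 (adjusted p = 0.519, 0.504 and 0.556).

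Genes that glucocorticoids induce showed no call. Of 23 tested 15 were higher, with a median of 0.05, and with array 5 10 were, with a median of -0.03. Of all features 51.9% and 52.8% were higher. Leaving out early-life array 2 or 4 or control 17 or 18 took the median to 0.02. Fkbp5, a GR co-chaperone, was at 7.17 ± 0.14 (SD, n = 5) against 7.16 ± 0.15 (SD, n = 6). Sgk1, a kinase, differed by 0.23, Tsc22d3, also called GILZ, by 0.27 and the clock gene Per1 by -0.01. Zbtb16, a transcription factor, differed by 0.17 (adjusted p = 0.457).

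Genes of energy and RNA handling turned mainly on array 5. Of 66 oxidative phosphorylation genes 49 were lower, with a median of -0.04, and with array 5 57 were, with a median of -0.31. Leaving out control 19 beside array 5 gave 33 lower and 33 higher, with a median of 0.0004. The median of 40 splicing factors was 0.06 and -0.09 with array 5, and that of 29 proteasome genes was 0.01 and -0.22.

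**Figure D5:**
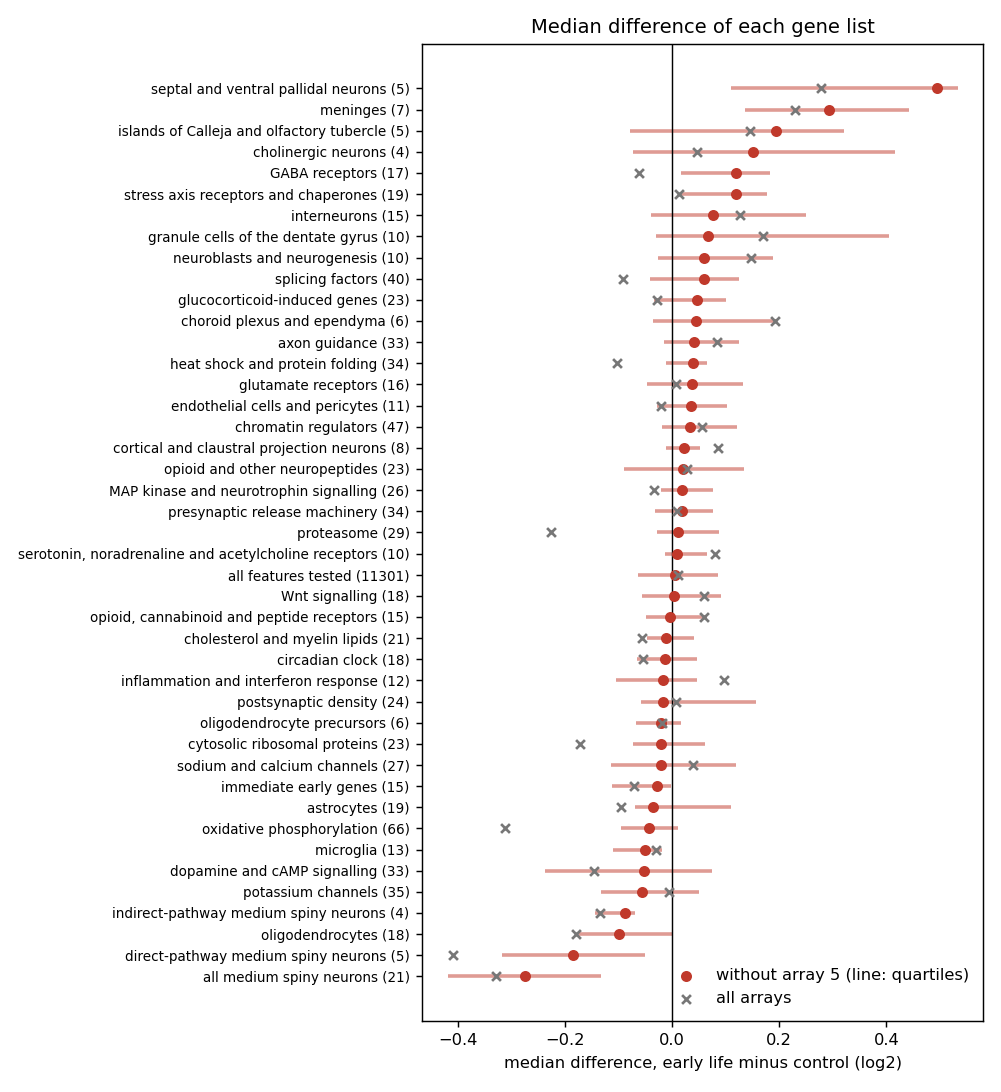
Median difference in log2 level, early life minus control, of each gene list with at least 4 tested members and of all features (number tested in brackets). Filled points and lines are the median and quartiles without array 5 and crosses the median with it; the medium spiny neuron list lies lowest at -0.27 and the septal and pallidal list highest at 0.50.

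The difference was also set beside the lifetime group and the dentate gyrus. The early-life and lifetime comparisons share their controls. The median of the medium spiny neuron list was -0.16 in the lifetime group and -0.27 in the early-life group. Other named genes differed more in the lifetime group, with Crh at 1.82 beside 1.33 and Sox11 at 0.63 beside 0.47. Gabra5 was at 0.60 in the lifetime group beside 0.68 in early life, and Rgs9 at -0.29 beside -0.48. Lifetime against control called 5 features, all higher. The test of lifetime against early life called 0 features without array 5, with 493 at an unadjusted p under 0.05. With array 5 it called 1, Lrrc58, higher in the lifetime arrays by 0.64 (adjusted p = 0.045). In the dentate gyrus, the early-life group differed from its controls at 1396 of the same 11301 features. The difference between the regions, tested on the differences between same-numbered arrays, was called at 0 features with all animals (2229 at an unadjusted p under 0.05) and at 29 without animal 5. Genes named here that were among these included Cntln, Gabrb2 and Crhbp. Without animal 5 the early-life difference of Cntln was 0.39 in the nucleus accumbens and -0.10 in the dentate gyrus (adjusted p = 0.042 for the difference between them). Gabrb2 differed by 0.35 and Crhbp by 0.33 in the nucleus accumbens. With all dentate arrays their differences there were -0.23 and -1.16 (adjusted p = 0.022 and 0.044 in the test between regions without animal 5). For Scn4b that test gave an adjusted p of 0.110, with -0.17 in the dentate gyrus without animal 5.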

How the data were processed

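The values used are log2 expression values that the authors deposited, 1 per RefSeq accession and array, made by RMA per the submitters' processing notes; its version, the chip's probe grouping and the scan dates are not given in the sources used here. Scanner intensities were not used here. Of 24142 accessions, 5307 repeated another's values and were counted once, which left 18835 features; 20920 accessions matched RefSeq (GRCm38.p6), and 17260 features had 1 symbol. Features below the 40th percentile of the mean over the nucleus accumbens arrays (5.77) were left out. Differences were fitted with limma 3.58.1 in R 4.3.3 on 6 early-life, 6 control and 7 lifetime arrays, and again without early-life array 5, with Benjamini-Hochberg adjustment at 0.05. Within the region no replicate number is shared between groups. Replicate numbers recur between the regions and were taken to mark 1 animal, which the labels do not state of each number. The deviations of 17 such pairs correlated at a median r of 0.15 (-0.16 to 0.49), with 9 above 0.1, so the replicate block and the difference between regions rest on that assumption.

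The precision is limited by the number of arrays. The labels do not say whether animals share litters. The members and gene lists were chosen with earlier results of these data known. Genes were named by a rule: Nr3c1, the 10 smallest p-values without array 5, the 5 smallest with it, the smallest p of each of 43 lists and the tissue markers. Greb1l, Mageh1 and Ppp1ca and the further list members were chosen after their values were seen. Alternatives were the level filter, further normalization, variance options, array weights, covariates, the block and leaving out single arrays. Some genes are not reported here by name, though counts include them.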

Additional observations from a re-analysis of the deposited data

Results flagged for a closer look

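In 35 of 130 groups of 6 arrays that were checked, the highest or lowest array lay further from the next than Dixon's 95% value allows. The check ran gene by gene and for the array measures, and chance gives about 1 in 20 for a single group. Early-life array 5 was the array apart in 32 of the 35 groups, and 3 were control arrays. The groups share the same arrays, and many genes were named for small p-values in limma without array 5. The count of 35 therefore cannot be set against 1 in 20. For the array measures, array 5 had a median of 6.50, an interquartile range of 1.72 and a mean correlation of 0.773. The part of this array's state in each gene's value was not tested.

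Array 5 was the low array for several neuronal and striatal genes, though not for all. It had 7.65 for Scn4b, 5.79 and 6.76 for the features of Pcdh19, 6.39 for Ptprr, 9.33 for Tac1, 8.66 for Drd1, 9.42 for Penk and 6.39 for Isl1. It also had 5.73 for Cpne4, 7.31 for Reln, 5.51 for Crh, 6.50 for Gabra5, 5.03 for Mageh1, 8.25 for Ppp1ca and 8.85 for Tcf4. Among genes that most cells use it had 10.11 for Cyc1, 8.63 for Rpl8, 7.48 for Psmb4, 8.69 for Srsf6, 6.71 for Mbd2 and 5.49 for Cyp51.

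Array 5 was the high array for Actn2 (7.79), the microglial receptor Trem2 (7.39), the T cell gene Cd3e (8.68), Grin2c (8.09), Hspb1 (9.40), Ccl4 (8.61), Prox1 (6.71) and Slc17a7 (7.11).

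Among the controls, array 19 was high for Scn4b, at 11.69 beside 10.29 to 10.55 in the others, and for Drd1, at 10.76 beside 9.89 to 10.18. Control array 15 was high for Cyp51, at 6.87 beside 6.41 to 6.56.

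The early-life difference of Cntln differed between the regions by -0.49, dentate gyrus minus nucleus accumbens, in the test on same-numbered arrays without animal 5 (limma, adjusted p = 0.042).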

How the results depend on the processing

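With all arrays, the count of 0 became 287 with array weights, 11 with the array interquartile range as a covariate and 5 with the replicate block. Without array 5, the count of 0 became 296 with array weights, 229 with weights and only the early-life and control arrays, 4 with only those arrays (Ptprr, Sez6l and both features of Pcdh19), 16 with the replicate block, 9 without lifetime array 8 as well and 15 at an adjusted p of 0.10. Leaving out 1 array each gave 0 to 1 without weights (1 without control 19) and 42 to 607 with them. The weights with single arrays left out, and with only the early-life and control arrays, were chosen after seeing the data. The other alternatives, in level filter, normalization and variance option, left both counts at 0. Nr3c1 with all arrays turned from 0.043 to -0.0049 with further quantile normalization and -0.0042 with median centring. Leaving out 1 array gave -0.024 to 0.165, below 0 without early-life array 4 or 6. Without array 5 it stayed above 0 in each alternative. Prox1 turned to 0.027 with the interquartile range as a covariate and Penk to 0.0044 without control 19, over a range of -0.152 to 0.0044 with 1 array left out. Leaving out array 5 turned the array differences to -0.0068 (median), 0.0395 (interquartile range) and 0.0011 (mean correlation). Leaving out 1 array moved them over -0.0068 to 0.0623, -0.101 to 0.0395 and -0.0403 to 0.0011. The difference between regions went from 0 to 29 calls without animal 5, and lifetime against early life from 0 to 1 with array 5 and to 2 at an adjusted p of 0.10. Of the 1369 values of 60 named features under the alternatives, 1302 kept direction and side of the threshold, 65 came to pass it and 2 turned. The cause of these shifts was not tested. Signal over background was not analysed here, so no detection limit is given.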

Other observations

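The genes of reelin and neuropeptide Y, both in the interneuron list, lay in opposite directions without array 5. Which cells of the region made them was not tested. Reln was at 8.94 ± 0.22 (SD, n = 5) in the early-life arrays and 9.41 ± 0.31 (SD, n = 6) in the controls, with an adjusted p of 0.292 in limma. Npy was at 9.77 ± 0.33 (SD, n = 5) against 9.42 ± 0.34 (SD, n = 6), with an adjusted p of 0.571. Of 15 tested interneuron genes 11 were higher and 4 lower, and their mean ran from 7.94 to 8.26 in the early-life arrays and from 7.86 to 8.13 in the controls. Mbd2, a reader of DNA methylation, was at 7.09 ± 0.04 (SD, n = 5) against 7.28 ± 0.07 (SD, n = 6), with every early-life array below every control and an adjusted p of 0.292. Kdm6a, a histone demethylase, lay higher by 0.26 (adjusted p = 0.426).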
